A study of Helianthus annuus with 9 samples.

Results

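Annotated long non-coding RNA (lncRNA) genes whose level was high in sunflower seeds on both later sampling days are described here. They were chosen from the lncRNA table by their day means in FPKM, a level per transcript length and library size. A gene was taken if its identifier was a plain number, so that it came from the annotation and not from the assembly, and if its mean on day 22 and on day 37 was at least 3 FPKM and at least 3 times its day 7 mean. Its day 22 mean also had to be under 3 times its day 37 mean. This rule took 58 of the 7573 annotated lncRNA, in a table of 65535 features. The difference between the late days and day 7 is therefore the choice itself and is given as a description, without a test, and so is the change between the late days, which the rule bounds on one side. The seeds came from Helianthus annuus line L-1-OL-1, a high oleic acid line grown in an experimental field, with no treatment. There were 3 groups, seeds of day 7, day 22 and day 37, with 3 libraries each and 9 in all. All libraries were made from total RNA of seeds of this 1 line after removal of ribosomal RNA. The labels give neither the starting point of the days nor the plants behind each library, so the spread within a day may be technical.

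Plant lncRNA are transcribed and often spliced like mRNA but carry no long open reading frame. Known examples from Arabidopsis act on a gene next to them, as the antisense transcript COOLAIR does at the flowering repressor FLC, or bind and sequester a microRNA, as IPS1 does in the phosphate response. In Arabidopsis seeds an antisense transcript of the dormancy gene DOG1 takes part in setting dormancy. A sunflower seed first grows by cell division, then fills with oil and storage protein, and finally dries. No source used here gives a product or a role for the sunflower genes named below, so each is described by its level, its order over the libraries and its place among other genes.

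The libraries of the late days were not alike. The mRNA table added up to between 542177 and 549131 FPKM on day 7, between 228550 and 331317 on day 22 and between 149870 and 277263 on day 37. On both late days the sum was highest in replicate 1 and lowest in replicate 3. The median of the 57962 assembled lncRNA loci, which no annotation lists, was 0 in each day 7 library. On day 22 this median was 0.62 FPKM in replicate 1, 0.89 in replicate 2 and 1.21 in replicate 3, and on day 37 it was 1.02, 1.10 and 1.54. The low-level signal of unannotated loci was thus highest in the libraries with the lowest mRNA sum. No depth is known, since the table gives FPKM only. In whole seeds, fewer cells of a type and less RNA per cell cannot be told apart.

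The 58 genes together held 17.1, 18.6 and 17.7 FPKM in the day 7 libraries, 411, 377 and 430 FPKM in the day 22 libraries and 515, 457 and 459 FPKM in the day 37 libraries. The sum over all annotated lncRNA went the other way, with 9142, 8881 and 8906 FPKM on day 7, then 9031, 7096 and 6097 on day 22, then 6024, 5111 and 3451 on day 37. The 58 genes thus made up 0.187% to 0.209% of the annotated lncRNA signal in day 7 libraries, 4.55% to 7.05% in day 22 libraries and 8.54% to 13.3% in day 37 libraries. Most were of low level: the median gene stood at 0.06 FPKM on day 7, later at 4.73 (day 22) and 6.38 FPKM (day 37), and 50 of the 58 had a late mean under 10 FPKM. All 58 were at 1 FPKM or more in each of the 6 late libraries, and in every one of these genes the lowest late library was above the highest day 7 library. This was also so in 404 of the 1682 annotated lncRNA at 1 FPKM or more in at least 3 libraries. Among assembled loci past that filter it was so in 30452 of 32465. The rule used these levels, so nothing is read from the count. In replicate 3 of day 37 all 58 were among the 200 highest annotated lncRNA, against 44 in replicate 2 and 35 in replicate 1 of that day. On day 22 there were 39 such genes for replicate 3, 18 for replicate 2 and 8 for replicate 1.

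**Figure D1:**
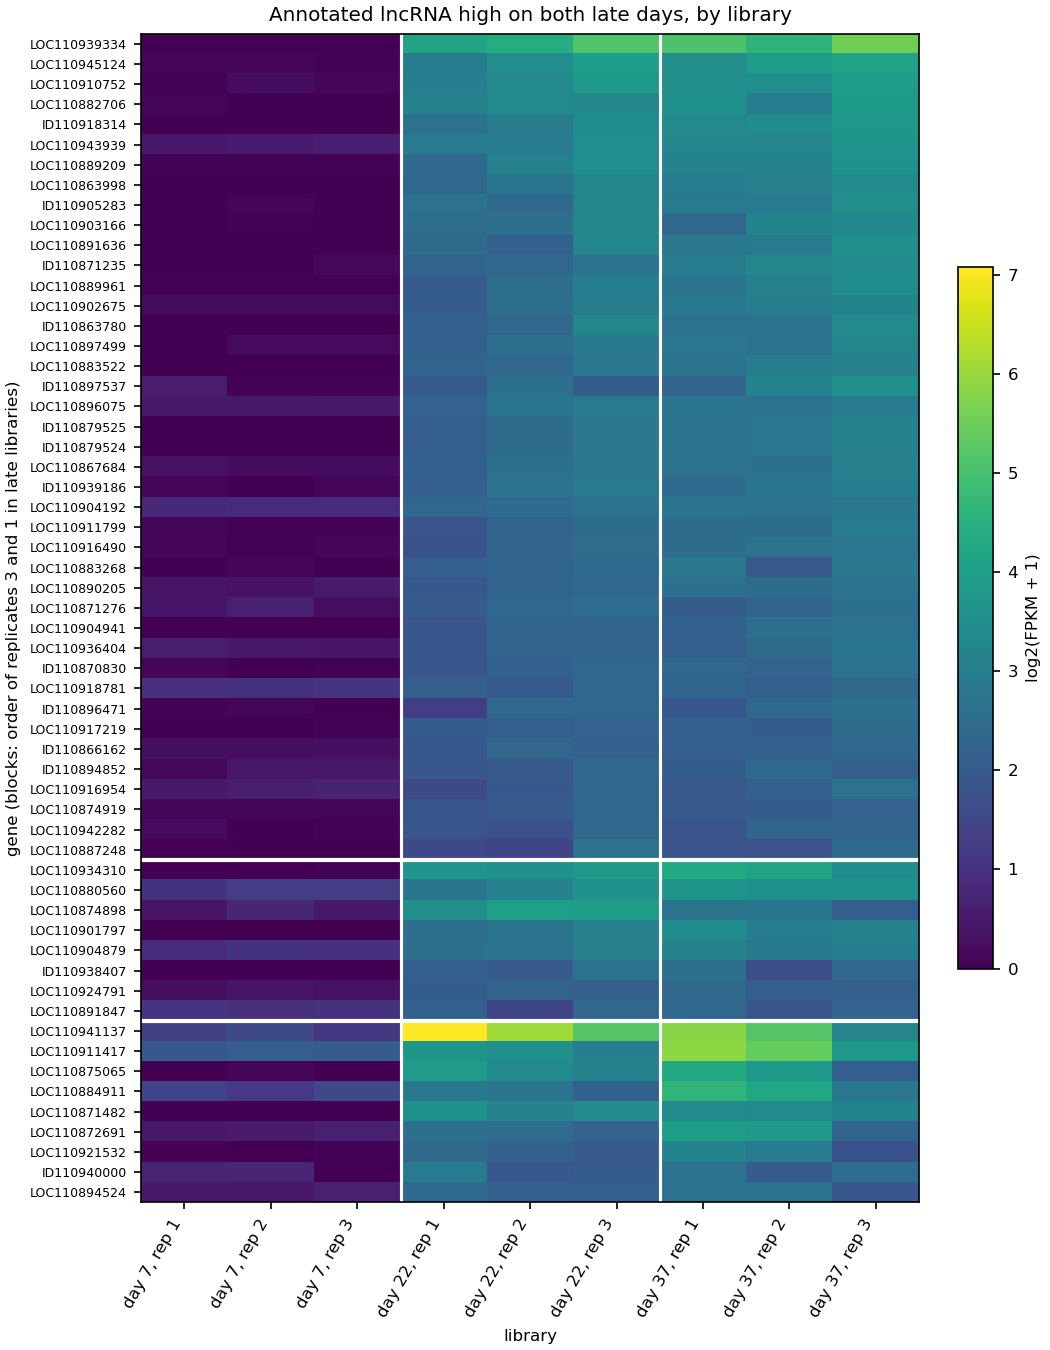
Level of each of the 58 genes (rows) in each of the 9 libraries (columns), as log2(FPKM + 1) by colour. The rows are in 3 blocks, from top to bottom the 41 genes with replicate 3 above replicate 1 on both late days, the 8 of mixed order and the 9 with replicate 3 below replicate 1, each sorted by late mean. In every row the 3 day 7 columns are darker than the 6 late ones.

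LOC110941137 had the highest late mean of the 58. It stood at 1.54, 1.93 and 1.18 FPKM in the 3 libraries of day 7, at 134, 66.4 and 35.2 FPKM on day 22 and at 55.8, 35.6 and 8.35 FPKM on day 37. Its libraries were spread widely within each late day, so the late groups overlapped, and on both late days replicate 1 was the highest. LOC110939334 came next. The table lists it at 0 throughout day 7, and it stood at 16.7, 19.8 and 34.0 FPKM on day 22 and at 33.0, 23.4 and 45.6 FPKM on day 37. Here replicate 3 was the highest library on both late days. LOC110911417 had the highest day 7 level of the 58, with 2.79, 3.29 and 3.14 FPKM. It then stood at 12.5, 10.8 and 7.20 FPKM on day 22 and at 57.7, 41.7 and 12.7 FPKM on day 37, and it was again lowest in replicate 3.

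LOC110934310 was listed at 0, 0 and 0.02 FPKM on day 7 and stood at 12.1, 11.0 and 12.9 FPKM on day 22 and at 18.8, 16.5 and 9.92 FPKM on day 37. Its day 22 libraries lay close together, at 12.0 ± 0.957 FPKM (SD, n = 3). LOC110945124 had between 0.05 and 0.07 FPKM on day 7, then 6.85, 10.2 and 14.2 FPKM on day 22 and 10.3, 13.9 and 16.4 FPKM on day 37. LOC110875065 had at most 0.06 FPKM on day 7, then 13.9, 9.22 and 7.88 FPKM on day 22 and 18.6, 12.6 and 3.31 FPKM on day 37. These last genes had similar late means, 12.0 and 10.9 FPKM, and opposite orders of the libraries.

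The other members of the 10 with the highest late mean lay between 9.49 and 10.7 FPKM. LOC110910752 stood at 7.11, 8.97 and 13.2 FPKM on day 22 and at 10.3, 10.1 and 14.6 FPKM on day 37. LOC110884911 averaged 1.63 ± 0.358 FPKM on day 7 (SD, n = 3 here and below), then 5.10 ± 1.34 FPKM (day 22) and 15.8 ± 9.08 FPKM (day 37). LOC110880560 had 1.33 ± 0.239, 8.33 ± 2.94 and 11.1 ± 0.457 FPKM on these days. LOC110882706 had 0.06, 0 and 0 FPKM in the day 7 libraries, 8.62 ± 0.933 FPKM on day 22 and 10.4 ± 3.40 FPKM on day 37.

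**Figure D2:**
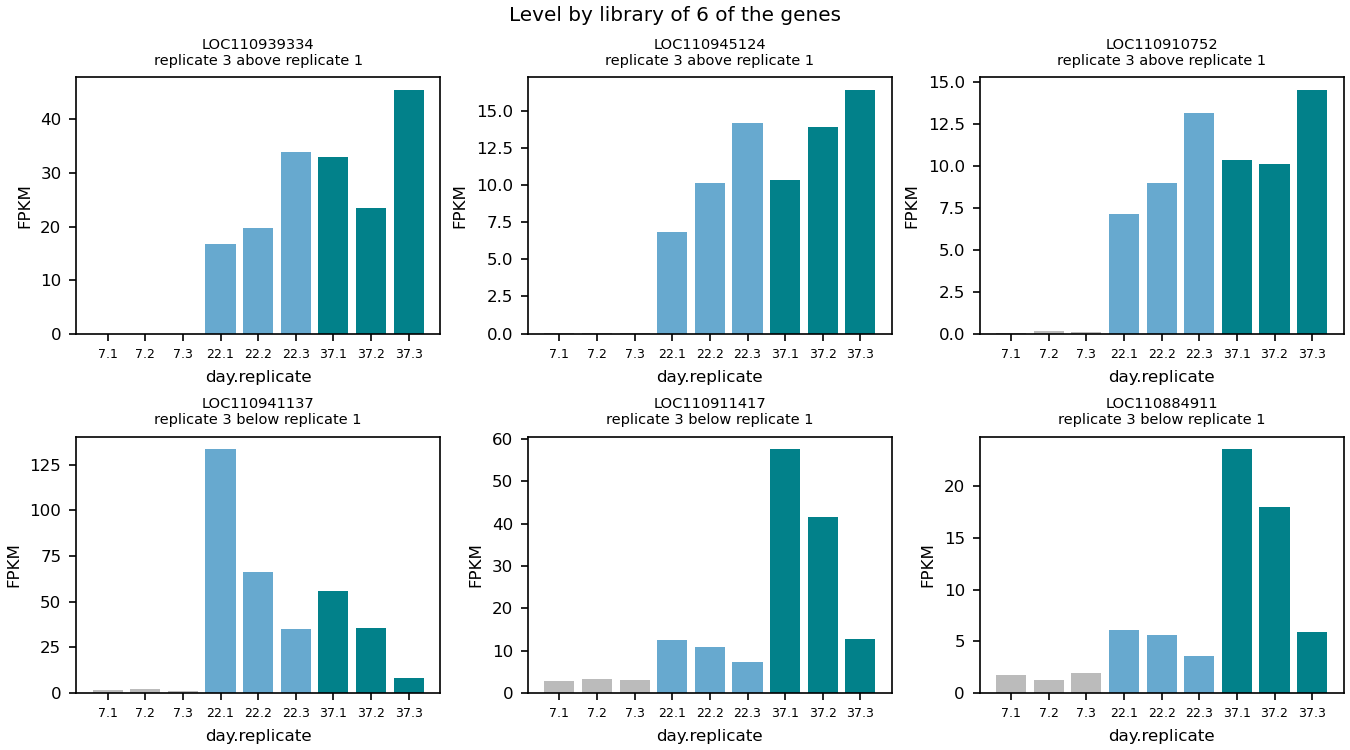
FPKM of 6 genes in each library (bars, from day 7 replicate 1 on the left to day 37 replicate 3 on the right; each panel has its own axis from 0). In the upper row, as in LOC110939334, the highest bar of each late day is replicate 3, and in the lower row, as in LOC110941137, it is replicate 1.

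The rule used day means and not the order of the libraries within a day. Those means hold the same libraries, however, so a high replicate 3 can itself bring a gene past a threshold. Of the 58, 50 still met the rule without day 22 replicate 3, and 54 without replicate 1 of that day. The counts that follow are therefore not independent of the choice. Replicate 3 was above replicate 1 on both late days in 41 of the 58 genes, or 70.7%. The same held for 254 of the 1682 annotated lncRNA at 1 FPKM or more in at least 3 libraries, a filter that all 58 pass, or 15.1%, and for 83.7% of the 32465 assembled loci past that filter. The opposite order, with replicate 3 below replicate 1 on both late days, was seen in 9 of the 58, in 69.5% of the 1682 and in 4.78% of the assembled loci. The remaining 8 of the 58 had different orders on the late days. The ratio of replicate 3 to replicate 1 had a median of 1.55 over the 58 on day 22 and 1.33 on day 37, against 0.603 and 0.386 over the 1682. The median of the assembled loci had a ratio of 1.95 on day 22 and 1.51 on day 37. Across the 58 genes the log2 ratios of day 37 and day 22 had a Pearson r of 0.81 and a Spearman rho of 0.71, over genes that share the same 4 libraries, so that this is a description only. Whether the library differences set the level of these genes was not tested.

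Among the 41 genes with replicate 3 above replicate 1, the median ratio was 1.73 on day 22, from 1.04 to 2.88, and 1.38 on day 37, from 1.01 to 2.74. Their level went up from replicate 1 through 2 to 3 on both days in 21 of them. Over the 6 late libraries their log2 FPKM had a median SD of 0.40, and of 0.20 once the log2 median of the assembled loci in each library was subtracted, with a smaller SD in 34 of the 41. Of the 9 genes with replicate 3 below replicate 1, none had a smaller SD after this step, and their median SD was 1.03 after it and 0.87 before. Measured against the sum of the mRNA table instead, the SD was smaller in 5 of the 9 and in 0 of the 41. Since the grouping by order already uses these libraries, the SD values are a description. The 9 genes were LOC110941137, LOC110911417, LOC110875065, LOC110884911, LOC110871482, LOC110872691, LOC110921532, LOC110894524 and the gene with ID 110940000.

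**Figure D3:**
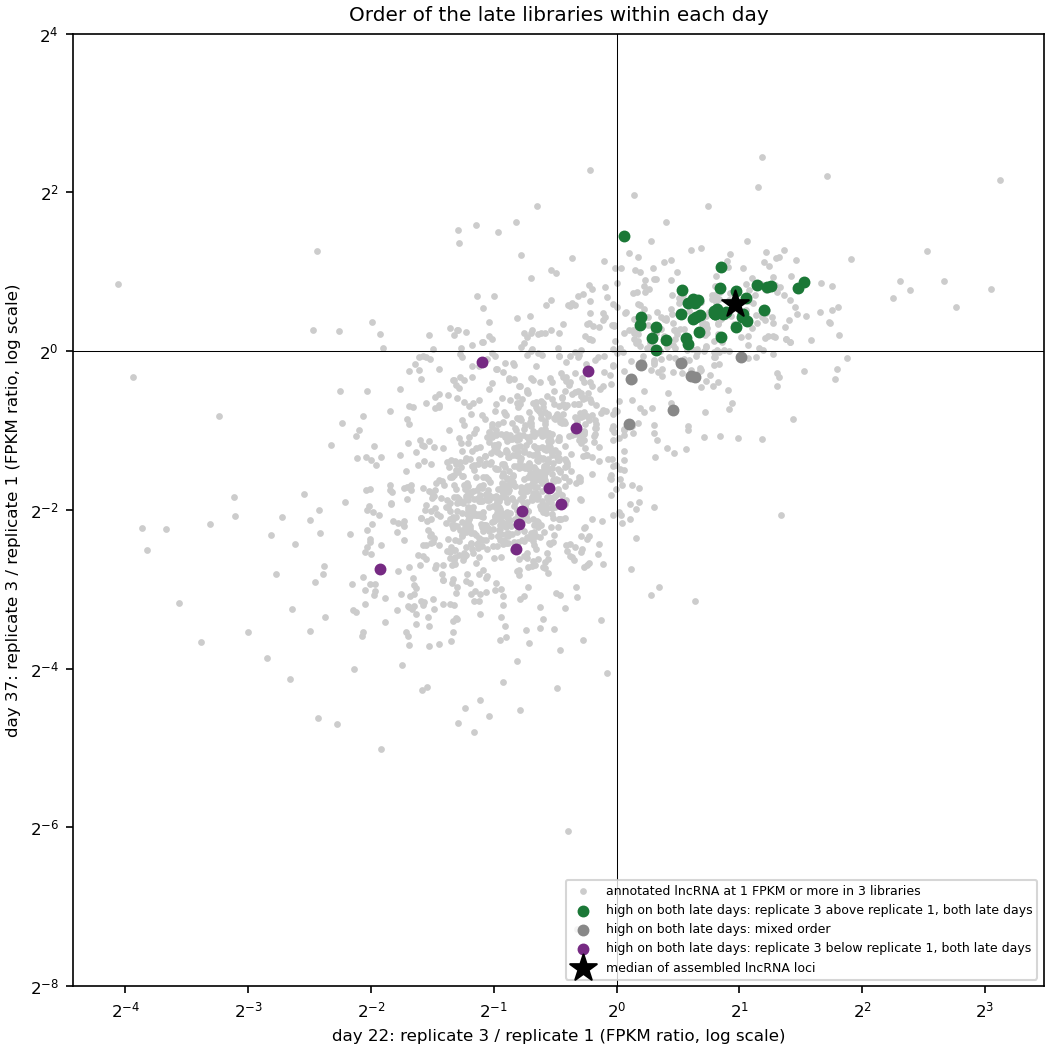
Ratio of FPKM in replicate 3 to replicate 1 on day 22 (x axis) and day 37 (y axis), both on log scales, for the 58 genes (coloured) and for the 1682 annotated lncRNA at 1 FPKM or more in 3 libraries (light grey, genes at 0 in a library of the ratio not drawn). The 41 green points lie at the upper right around the star, the median of the assembled loci at 1.95 and 1.51, and the 9 purple points lie at the lower left.

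The scaling of the table decided how many genes met the thresholds. As deposited 58 did. Scaling by median-of-ratios left 15, a trimmed mean scaling left 9 and quantile normalization left 23, while scaling on the mRNA genes at 10 FPKM or more in every library gave 107. The first 3 were computed here on the lncRNA table, where 57962 of the 65535 features were assembled loci, and the last on 453 mRNA genes. How far the assembled loci set the first 3 was not tested. The genes that met the thresholds under all 4 scalings were 9 of the 58. They were LOC110939334, LOC110934310, LOC110945124, LOC110875065, LOC110910752, LOC110882706, LOC110871482, the gene with ID 110918314, and LOC110889209. Of these, 6 had replicate 3 above replicate 1 on both late days, 2 had it below and 1 was mixed. The order of the replicates also moved with the scaling: replicate 3 was above replicate 1 in 30, 7, 22 and 54 of the 58 with the 4 scalings in the order above, and in 9.51%, 2.85%, 4.46% and 46.7% of the 1682. The share among the 58 was 51.7%, 12.1%, 37.9% and 93.1%. All 4 scalings reuse the same genes and libraries, so they do not count as repeats. The 1682 are also mostly genes present on day 7. Of them 1192 had a day 7 mean of at least 1 FPKM, against 6 of the 58, so nothing is read from the difference in share.

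Between the late days, the day 37 mean was above the day 22 mean in 54 of 58. The same held for 33.3% of the 1682 and 89.2% of the assembled loci past the filter. Since the rule bounds only a fall between these days, nothing is read from these shares. The ratio of the day 37 to the day 22 mean had a median of 1.25 over the 58, from 0.369 to 3.68. On the log2(FPKM + 1) scale the median difference was 0.29 as deposited, and its value was 0.11 by median-of-ratios, 0.03 after quantile normalization, 0.53 on the mRNA gene scale and -0.08 by trimmed mean, where its sign turned. Over the 1682 annotated lncRNA the median difference was -0.29 as deposited and between -0.42 and -0.28 with the 4 scalings. The median of the assembled loci, averaged over the 3 libraries of a day, was 1.35 times as high on day 37 as on day 22, and the 41 genes with replicate 3 above replicate 1 had a median ratio of 1.29.

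All day 37 libraries lay above all day 22 libraries in 3 of the 58 genes, beside 4.34% of the 1682, and all lay below in 1, beside 33.1%. The rule itself keeps out genes that fell 3-fold or more, so nothing is read from these shares. Leaving out a library can only keep or raise such a count, which was 31 without day 22 replicate 3, 13 without day 37 replicate 1, and 8 without either of the other day 37 libraries. The share over the 1682 was not taken with a library left out, so nothing is read from these counts either. LOC110911417 was one of the 3, by a narrow margin, since its lowest day 37 library had 12.7 FPKM and its highest day 22 library 12.5 FPKM. The gene with ID 110871235 had 6.96, 8.72 and 9.60 FPKM on day 37, against 3.82, 4.20 and 5.48 FPKM on day 22. LOC110890205 had 5.00, 4.69 and 5.62 FPKM on day 37, against 2.87, 3.83 and 4.24 FPKM on day 22.

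Same-numbered libraries of the late days deviated together in the mRNA table, replicate 2 only weakly, so the 58 genes were also compared by number. A gene whose late days do not overlap moves 1 way in all 3 pairs. The count over pairs therefore cannot be lower than the count without overlap. The rule also keeps out falls of 3-fold or more, so nothing is read from the shares that follow. Day 37 was above day 22 in all 3 pairs in 33 genes, beside 15.2% of the 1682, and below in all 3 in LOC110941137 and LOC110874898, beside 52.1%; the other 23 were mixed. Among the 33 were LOC110939334, LOC110945124, LOC110910752 and LOC110889209. These counts moved with the scaling: 22 genes were above and 3 below with median-of-ratios scaling, 12 and 8 after quantile normalization, and 12 and 2 with the scaling on mRNA genes. With trimmed mean scaling the balance turned, with 4 above and 17 below, or 6.90% and 29.3%, beside 4.52% and 66.9% of the 1682. With the other scalings, in the order above, 10.8%, 6.30% and 10.9% of the 1682 were above. Those below were 57.6%, 62.4% and 50.9%. Among the assembled loci past the filter 60.6% were above and 4.6% below in all 3 pairs as deposited. Their balance turned too with trimmed mean scaling, with 15.0% above and 18.5% below.

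A ratio of at least 1.5 between the day 37 and the day 22 mean was found in 6 of the 58 genes. LOC110911417 led with 3.68. LOC110884911 followed with 3.10, with 23.6, 18.0 and 5.86 FPKM on day 37 against 6.13, 5.59 and 3.59 FPKM on day 22. LOC110872691 had 14.4, 13.0 and 3.81 FPKM on day 37, against 4.99, 4.74 and 3.64 FPKM on day 22, a ratio of 2.34. These 3 were high in replicates 1 and 2 of day 37 while replicate 3 stayed near the day 22 level. The gene with ID 110897537 had the opposite order, with 3.93, 7.95 and 10.8 FPKM on day 37 against 3.01, 5.11 and 3.14 FPKM on day 22.

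LOC110874898 was the gene whose day 37 libraries all lay below day 22. It had 5.66, 5.68 and 3.38 FPKM on day 37, against 10.5, 15.1 and 14.4 FPKM on day 22, and 0.46 ± 0.214 FPKM on day 7 (SD, n = 3). LOC110941137 also had a lower mean on day 37, at 33.2 ± 23.8 FPKM against 78.4 ± 50.4 FPKM on day 22, with overlapping libraries but a lower value in each same-numbered pair. LOC110871482 was nearly level over the late days, at 9.75, 9.14 and 8.20 FPKM on day 37 against 11.3, 7.76 and 9.62 FPKM on day 22, with 0 in each library of day 7. The gene with ID 110938407 had 3.79 ± 1.45 FPKM on day 37 against 3.93 ± 1.19 on day 22, and LOC110871276 had 4.08 ± 0.934 against 4.04 ± 0.853 FPKM.

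**Figure D4:**
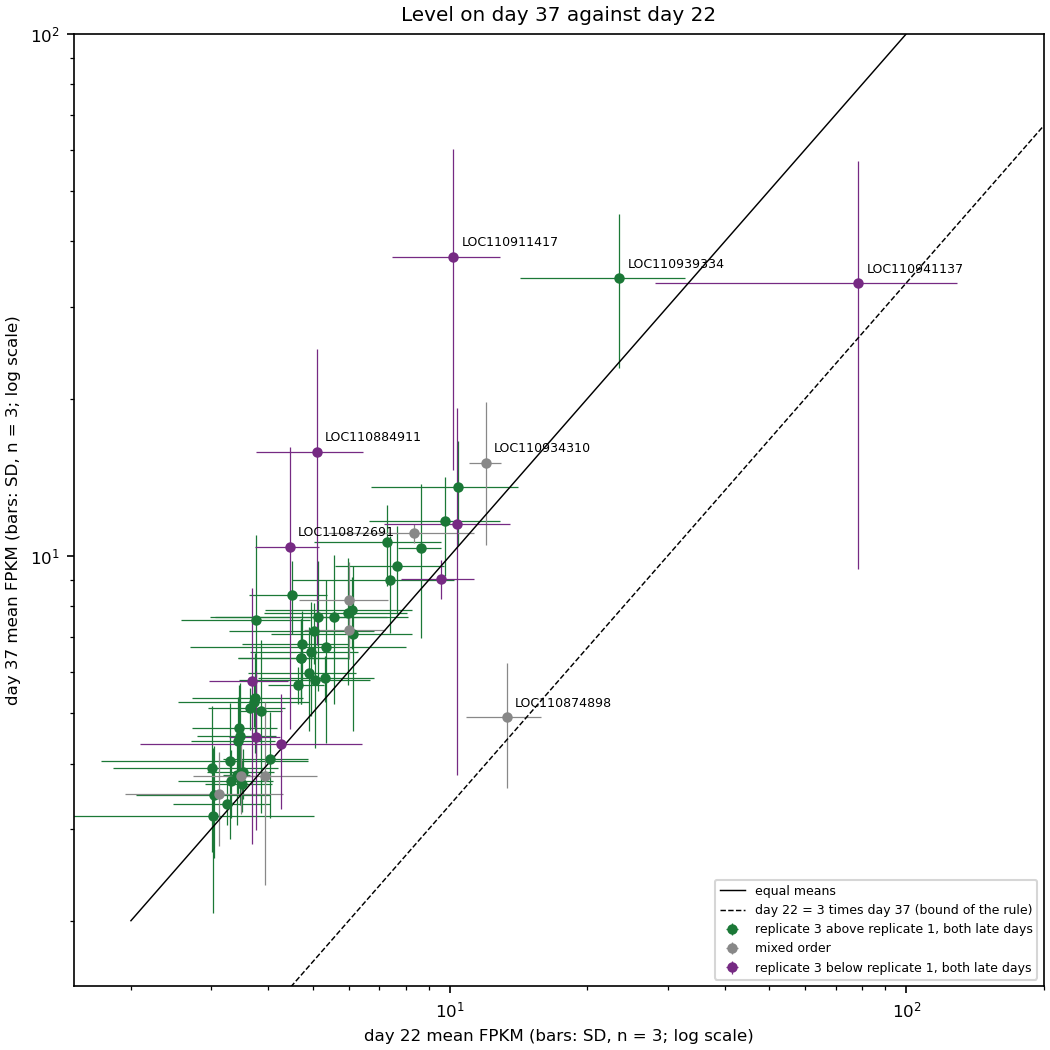
Mean FPKM on day 37 (y axis) against day 22 (x axis) for the 58 genes, on log scales with SD bars (n = 3 libraries each), coloured by the order of replicates 3 and 1. As deposited, most points lie close above the line of equal means, LOC110911417 and LOC110884911 stand above it, and LOC110874898 and LOC110941137 stand below it, near the bound that the rule sets.

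On day 7, 10 of the 58 genes were listed at 0 in all 3 libraries, or 17.2%, beside 5.77% of the 1682 genes past the filter and 31.3% of all 7573. The rule used the day 7 level, so nothing is read from these shares. The 5 with the highest late mean were LOC110939334, LOC110871482, the gene with ID 110918314, LOC110901797 and LOC110863998. The gene with ID 110918314 had 5.34, 6.79 and 9.76 FPKM on day 22 and 9.20, 9.92 and 12.7 FPKM on day 37. LOC110901797 had 4.90, 5.62 and 7.47 FPKM on day 22 and 9.85, 6.96 and 7.91 FPKM on day 37, while LOC110863998 had 6.10 ± 2.17 and 7.88 ± 1.25 FPKM. An entry of 0 can also be a failed estimate, so no fold is given for them.

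At the other end, 6 genes had a day 7 mean of at least 1 FPKM. They were LOC110911417, LOC110884911, LOC110941137, LOC110880560, LOC110918781 and LOC110891847. LOC110891847 was the closest to the threshold on the fold over day 7, with 1.03, 3.12 and 3.50 FPKM over the 3 days, ratios of 3.03 and 3.39 to day 7. LOC110936160 fell just outside, at 1.70, 4.76 and 6.08 FPKM, with a day 22 ratio of 2.81. The lowest late library was under 2 times the highest day 7 library in 2 of the 48 genes with a day 7 value above 0, and the median of this ratio over the 48 was 17.9.

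The level threshold was crowded. LOC110916954, LOC110887248 and LOC110942282 lay just inside it, with day 22 means of 3.01, 3.03 and 3.04 FPKM. The genes with ID 110906996 and ID 110882642 lay just outside, at 2.98 FPKM each on day 22, with LOC110871876 at 2.75 FPKM. In all, 29 genes failed on the day 22 level alone, 2 on the day 37 level alone, 7 on the day 22 fold alone, and 1 on the bound between the late days. The last was LOC110907209, with 1.08, 33.8 and 3.40 FPKM over the 3 days. The same thresholds were met by 5211 of the 57962 assembled loci, or 8.99%, and by 0.766% of the annotated lncRNA.

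In the RefSeq gene table of assembly HanXRQr2.0-SUNRISE, 44 of the 58 identifiers were found, 42 as lncRNA and 2 as protein-coding genes. The other 14 had no entry there, or 24.1%, beside 14.8% of the 1682 genes past the filter and 25.0% of all 7573. Of the 14, 12 belonged to the 41 genes with replicate 3 above replicate 1. The protein-coding entries were LOC110904941, with 4.67 ± 0.979 FPKM on day 37, against 3.45 ± 0.725 FPKM on day 22, and listed at 0 on day 7, and LOC110887248. The label of a non-coding RNA thus goes against the gene table for these 2 genes. LOC110887248 had 2.57, 2.50 and 4.46 FPKM on day 37 and 1.93, 1.81 and 5.36 FPKM on day 22. None of the 58 was also listed in the mRNA table.

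The genes with ID 110879524 and ID 110879525 had the same value in every library, 3.45, 4.66 and 6.02 FPKM on day 22 and 5.60, 5.79 and 7.74 FPKM on day 37. Their reads cannot be told apart from the table, so they may count as 1 gene. The 44 genes found in the gene table were spread over all 17 chromosomes, with at most 6 on one. No pair of them stood within 5 places of each other in the gene order.

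Of the assembled transcripts deposited with the study, which cover 7 sequences only, 3 carried the identifier of one of the 58 genes. LOC110918781 had 2 assembled spliced isoforms at the same locus, LXLOC_014425 of the lncRNA table, with 4 and 2 exons on the plus strand of NC_035434.1 between 97216590 and 97225820. The coordinates are those of the authors' files, made with a genome build not named in any source used here. Over the 3 days this locus had 2.34 ± 0.147, 4.81 ± 0.482 and 4.88 ± 1.08 FPKM, and the annotated gene 1.05 ± 0.0954, 3.52 ± 0.589 and 3.85 ± 0.421 FPKM (SD, n = 3). Both were lowest on day 7. The rule requires this of the annotated gene, and the locus may share its reads, so nothing is read from it. The assembly also held an antisense transcript of 1 exon opposite LOC110934310, on NC_035436.1 from 7370839 to 7372302. Its locus was not listed in the lncRNA table, the only one searched for its level. Whether reads were counted by strand is not stated, so the level of LOC110934310 may include reads of that transcript. No circular RNA of the 3482 listed overlapped these transcripts.

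Because some plant lncRNA act on a gene beside them, the nearest protein-coding gene on each side of the 44 placed genes was looked up in the gene order and its mRNA level compared between days. These levels come from another table than the one that chose the 58 genes. Of 87 such neighbours 71 were listed in the mRNA table, and 33 of them, next to 27 of the 44 genes, had at least 1 FPKM in at least 3 libraries. A neighbour was called at an adjusted p under 0.05 in a limma fit of all mRNA features and a change of at least 1 on the log2(FPKM + 1) scale. On day 22 against day 7, 9 of the 33 rose, beside 34.1% of all mRNA features and 21.4% of the annotated mRNA genes tested, and 12 fell, beside 24.9% and 32.5%. On day 37 against day 7, 8 rose, beside 39.4% and 24.3%, and 15 fell, beside 38.8% and 50.4%. The median log2 change of the 33 was -0.32 on day 22 against day 7, beside 0.09 over all features and -0.53 over annotated genes. On day 37 against day 7 it was -0.95, beside -0.32 and -1.03. As deposited, neighbours thus fell as well as rose. The counts depended on the scaling, as did those of all annotated genes: on day 22 against day 7, 5 of the 33 fell with quantile normalization (15.2%, beside 21.8% of annotated genes) and 5 with the scaling on mRNA genes (15.2%, beside 13.3%). In that scaling the median log2 change on day 22 turned to 0.15, beside 0.18 over annotated genes. These comparisons share the day 7 libraries.

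The neighbour with the largest rise was LOC110889962, directly before LOC110889961. It had 0.09, 0.05 and 0.09 FPKM on day 7, 6.15, 5.75 and 5.13 FPKM on day 22 and 166, 130 and 41.3 FPKM on day 37. It rose by 2.63 ± 0.44 (SE) on the log2 scale on day 22 against day 7 (limma adjusted p = 1.11e-04) and by 6.50 ± 0.44 on day 37 against day 7 (adjusted p = 3.82e-08). The lncRNA LOC110889961 beside it had 3.08, 4.93 and 7.37 FPKM on day 22 and 5.59, 7.49 and 9.84 FPKM on day 37. The neighbour was lowest and the lncRNA highest in replicate 3 on both late days.

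LOC110876892, with 1 gene between it and LOC110875065, was listed at 0 on day 7 and had 1.41, 2.18 and 4.64 FPKM on day 22 and 3.49, 4.26 and 4.23 FPKM on day 37. It rose in both comparisons with day 7, by 1.81 ± 0.25 and 2.32 ± 0.25 on the log2 scale (limma adjusted p = 2.38e-05 and 1.58e-06). LOC110933388, directly after LOC110936404, had at most 0.01 FPKM on day 7, 2.48 ± 0.479 FPKM on day 22 and 2.79 ± 0.742 FPKM on day 37 (SD, n = 3) and rose by 1.78 and 1.90 on the log2 scale (adjusted p = 1.47e-06 and 4.30e-07). LOC110888652, directly before the protein-coding entry LOC110887248, had 0.01 ± 0.0173, 1.45 ± 0.622 and 2.30 ± 0.657 FPKM over the 3 days and also rose in both (adjusted p = 7.50e-05 and 3.10e-06). In all, 7 neighbours rose in both comparisons with day 7 and 11 fell in both. The share of all mRNA features called in both was not taken, so nothing is read from these counts.

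LOC110884911 was the one gene with risen neighbours on both sides. LOC110881529 was listed at 0 on day 7 and had 1.26 ± 0.547 FPKM on day 22 and 2.26 ± 0.452 FPKM on day 37, and LOC110884910 had 0.117 ± 0.0115, 1.44 ± 0.201 and 1.18 ± 0.120 FPKM (SD, n = 3). LOC110884910 rose by 1.12 ± 0.13 on day 22 against day 7 (limma adjusted p = 3.63e-06). Its log2 change of 0.96 on day 37 against day 7 was below the size threshold. LOC110865498, before LOC110863998, had 1.96 ± 0.236, 7.00 ± 3.04 and 6.16 ± 3.80 FPKM on the 3 days. It rose by 1.36 ± 0.43 on day 22 against day 7 (adjusted p = 0.0110), a call that was lost without day 22 replicate 1, where the adjusted p was 0.0568. LOC110917256, directly before LOC110916954, rose by 1.35 ± 0.35 on day 22 against day 7 (adjusted p = 0.00330).

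Among the neighbours that fell, LOC110904194, before LOC110904192, had 29.0, 29.4 and 30.3 FPKM on day 7, 6.75, 4.54 and 3.04 FPKM on day 22 and 0.09, 0.12 and 0.03 FPKM on day 37. Its log2 change was -2.45 ± 0.28 on day 22 against day 7 and -4.82 ± 0.28 on day 37 against day 7 (limma adjusted p = 4.23e-06 and 9.71e-09). LOC110883796, directly before LOC110880560, fell to 0.0767 FPKM on both late days, against 9.35 ± 0.272 FPKM on day 7, a log2 change of -3.26 on day 22 (adjusted p = 8.58e-10). LOC110873743, before LOC110871482, had 48.0 ± 0.883, 10.7 ± 4.99 and 4.64 ± 2.86 FPKM over the 3 days. It fell by 2.17 ± 0.49 on day 22 against day 7 (adjusted p = 0.00110), a call lost with quantile normalization. LOC110899142, directly after LOC110903166, had a log2 change of -2.48 ± 0.21 on day 22 against day 7, and LOC110872688, directly after LOC110872691, one of -1.89 ± 0.15 (adjusted p = 3.47e-07 and 1.89e-07). LOC110879504, directly after LOC110874919, fell on day 37 against day 7, to 27.8, 20.9 and 5.44 FPKM on day 37 against 98.2, 99.3 and 98.4 FPKM on day 7 (adjusted p = 6.05e-04). The lncRNA beside all these genes were higher on the late days by the way they were chosen.

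**Figure D5:**
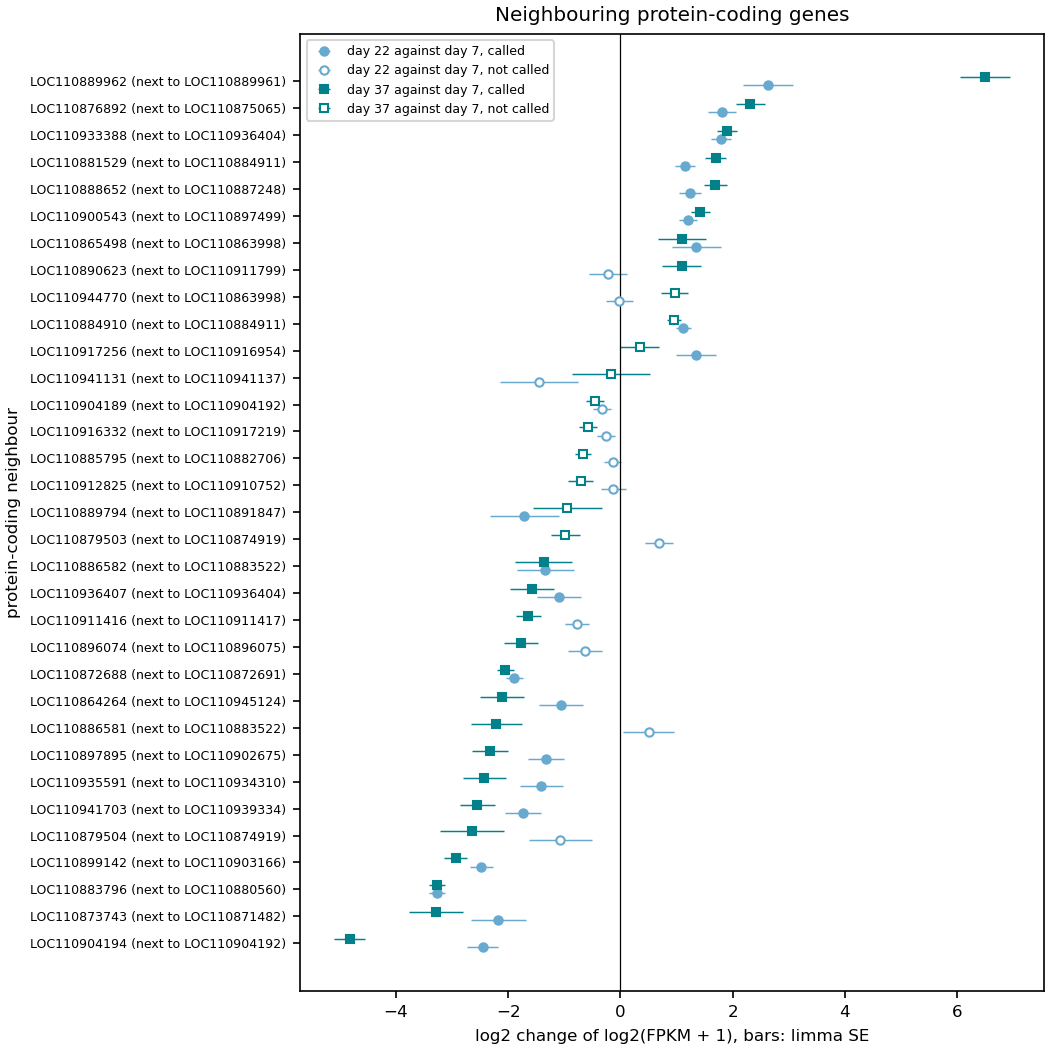
Log2 change of the 33 tested protein-coding neighbours, named on the y axis with the lncRNA each lies next to, on day 22 against day 7 (circles) and day 37 against day 7 (squares), with limma SE as bars and filled symbols for called changes. LOC110889962 stands apart at the top with 2.63 and 6.50, and most neighbours lie left of 0.

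On day 37 against day 22, 2 neighbours rose, beside 0.843% of all mRNA features and 0.907% of annotated genes, and 4 fell, beside 16.6% and 21.5%. LOC110889962 rose again, by 3.87 ± 0.44 on the log2 scale (limma adjusted p = 2.17e-05). LOC110890623, directly before LOC110911799, had 8.50 ± 3.92 FPKM on day 37 against 2.62 ± 0.679 FPKM on day 22 and rose by 1.31 ± 0.34 (adjusted p = 0.0120), a call lost without day 37 replicate 2. LOC110886581, directly after LOC110883522, fell by 2.72 ± 0.46, to 14.5, 12.0 and 5.26 FPKM on day 37 against 88.3, 69.5 and 55.4 FPKM on day 22 (adjusted p = 5.56e-04). LOC110879503, before LOC110874919, fell to 1.19 ± 0.483 FPKM on day 37 against 5.99 ± 1.71 FPKM on day 22 (adjusted p = 2.49e-04). LOC110904194 fell again, and LOC110896074, directly before LOC110896075, fell by 1.13 ± 0.30 (adjusted p = 0.0140), a call lost without day 22 replicate 1 or 2, without day 37 replicate 3 and with median-of-ratios scaling. With the replicate number as a block, 3 rose and 9 fell. Single libraries moved these counts: 11 fell without day 22 replicate 3 and 12 without day 37 replicate 1, while 5 rose without day 37 replicate 3, 3 without day 22 replicate 1 or 3, and 1 without day 37 replicate 2. LOC110941131, the nearest protein-coding gene before LOC110941137 with 6 genes between them, had 81.8 ± 5.15, 31.5 ± 14.9 and 98.2 ± 70.8 FPKM over the 3 days. It was called in none of the 3 comparisons.

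Set beside other annotated lncRNA with a marked time course, the 58 genes differed in the order of the late libraries as deposited. Of the 74 annotated lncRNA whose day 7 mean was at least 3 FPKM and at least 3 times each late mean, 1 had replicate 3 above replicate 1 on both late days and 53 had it below. Of the 13 that peaked on day 22 by the same thresholds, 1 had it above and 9 below. Among the 58 the numbers were 41 and 9. Those below made up 71.6% of the 74 and 69.2% of the 13, near the 69.5% of the 1682 annotated lncRNA past the filter. Replicate 3 was above in 70.7% of the 58 and in 83.7% of the assembled loci past the filter, so this order is not particular to the 58. It also moved with the scaling, from 7 to 54 of the 58 over the 4 scalings. The ratio of replicate 3 to replicate 1 on day 22 had a median of 1.55 in the 58, 0.392 in the 74 and 0.604 in the 13. The groups were cut by their day means, and these differences were not tested.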

How the data were processed

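Seeds of line L-1-OL-1 gave 9 libraries, 3 each on day 7, 22 and 37, grouped by the labels. The authors deposited gene levels as FPKM for lncRNA and for mRNA, per the file headers, but name no total, so the depth is unknown. They also deposited a scaled circular RNA signal with no stated unit and other values, the exon starts and ends of Cufflinks transcripts, used only at the chosen genes. The submitters' processing notes name DESeq2 1.4.5, RSEM 1.2.12, HISAT2 2.0.4 and Bowtie2 2.2.5 without a role.

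The 58 genes were chosen, and the lists and tests set, with earlier results of these data known. Named were the 10 highest late means, the 5 highest and 5 lowest differences between late days, 5 listed at 0 and 5 highest on day 7, those next to a threshold, and by class or assembly. Neighbours named were the 5 largest called changes each way whose replicates did not overlap. LOC110884910 and LOC110941131 were named after their values were seen. Gene order and classes came from the RefSeq table of HanXRQr2.0-SUNRISE, without its coordinates. That table pairs no product names, so no pathway lists could be used. No promoter table was used, so the planned motif search was not run.

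The neighbours' values were analysed as log2(FPKM + 1), a scale that understates changes of low genes, for mRNA features that reached 1 FPKM in 3 or more of the 9 libraries. All 9 libraries entered 1 fit in limma 3.58.1 (trended, robust) in R 4.3.3, with Benjamini-Hochberg adjustment over all features. Each feature thus had 1 estimate of spread over the 3 days and the same SE in all 3 comparisons. The spread could differ much between days, as in LOC110879504, with an SD of 0.601 FPKM on day 7 and 11.4 FPKM on day 37. The SE and adjusted p of day 37 against day 22 therefore do not measure the late spread alone. The fit was tested on simulated data, drawn independently for each library with 1 SD per feature. That test does not cover a spread that differs between days or libraries that deviate together. Same-numbered libraries of day 22 and day 37 deviated together from their day means. The correlations were 0.767, 0.149 and 0.781 for replicates 1, 2 and 3, so replicate 2 did so only weakly. No label pairs the numbers, and the mRNA sum also fell from replicate 1 through 2 to 3 on both late days. Whether equal numbers form pairs was not tested. With day 7 the correlations were from -0.0629 to 0.0639. Python 3.11.15, numpy 2.4.6, pandas 2.3.3 and matplotlib 3.10.9 were used.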

Additional observations from a re-analysis of the deposited data

How the results depend on the processing

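The number of genes that met the thresholds was 253 with a minimum mean of 1 FPKM and 25 with 5 FPKM. By scaling it was 15 (median-of-ratios), 9 (trimmed mean), 23 (quantile) and 107 (mRNA genes), and leaving out single libraries gave 54 to 60. The median log2 difference of day 37 and day 22 over the 58 was -0.083 (trimmed mean), 0.031 (quantile) and 0.53 (mRNA genes), and 0.15 to 0.44 without single libraries. Genes with all day 37 libraries above day 22 numbered 6, 1 and 6 with median-of-ratios, trimmed mean and quantile scaling and 4 to 31 without single libraries, an alternative chosen after seeing the data. Those below numbered 4 (trimmed mean), 3 (quantile) and 2 (mRNA genes), and 1 to 2 without single libraries. With the replicate numbers as pairs, also added after seeing the data, 33 genes were above and 2 below in all 3 pairs. Replicate 3 was above replicate 1 on both late days in 7 genes (trimmed mean) and 22 genes (quantile), and replicate 2 above replicate 1 in 25, a comparison added after seeing the data.

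For the neighbours on day 22 against day 7, 19 rose and 20 fell among the 71 tested of the 2 nearest genes on each side. A 5 FPKM filter left 3 that rose, and 5 fell under both quantile and mRNA gene scaling. Without single libraries 8 to 9 rose and 8 to 14 fell. On day 37 against day 7, 22 rose and 29 fell among the 71, 2 rose with the filter at 5 FPKM, and 6 to 9 rose and 14 to 17 fell without single libraries. On day 37 against day 22, 11 fell among the 71, 1 rose with the filter at 5 FPKM, 6 rose with median-of-ratios scaling and 6 with quantile normalization, and 5 rose without both late libraries numbered 3. Of these neighbours 9 fell with trimmed mean scaling, 12 with the scaling on mRNA genes and 9 with the replicate block, and 1 to 5 rose and 3 to 12 fell without single libraries. In the neighbours the block changed no other count by over 1.5 times. The median of all mRNA features moved to between -0.04 and 0.73 on day 22 against day 7, between -0.58 and 0.37 on day 37 against day 7 and between -0.08 and 0.43 on day 37 against day 22 with the 4 scalings. Of 459 values of named neighbours under alternatives, 451 kept direction and call and 8 lost the call. The cause of these moves was not tested. Since FPKM alone are given, counting error is unknown and limits low levels most.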

Other observations

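Another 47 annotated lncRNA reached 3 FPKM and 3 times the day 7 mean on day 37 while their day 22 mean stayed under 3 FPKM. Replicate 3 was above replicate 1 on both late days in 10 of them and below in 25. All day 37 libraries lay above all day 22 libraries in 16, beside 4.34% of the 1682 annotated lncRNA at 1 FPKM or more in 3 libraries. The means of both days chose the 47, so nothing is read from this count. The highest was LOC110868341, with 16.7, 12.9 and 1.45 FPKM on day 37, against 2.43, 1.31 and 0.43 FPKM on day 22 and 3.07, 3.31 and 2.11 FPKM on day 7, so that its day 37 level rested on replicates 1 and 2. LOC110891127 had 13.0, 7.56 and 3.60 FPKM on day 37, against at most 3.23 FPKM on day 22 and at most 0.11 FPKM on day 7. LOC110864860, a protein-coding gene in the gene table, had 11.0, 10.4 and 3.05 FPKM on day 37, against 2.84, 2.56 and 1.76 FPKM on day 22. These genes were picked for their high day 37 level, and no test was run on them.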
